A study of Macaca fascicularis with 10 samples.

Results

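BMP4, VTCN1, GATA3 and TP63 are 4 genes that primate embryos switch on in amnion, trophoblast or surface epithelium, and their signals were followed over 10 arrays of cynomolgus monkey (Macaca fascicularis) cells. They are 4 of the 11678 genes tested on the array. Every probe set that the probe annotation names with 1 of these symbols was taken, which gave 10 probe sets, 1 each for BMP4 and VTCN1, 2 for GATA3 and 6 for TP63. The genes were selected with their values on these arrays known, so their levels and differences are given as a description, with no test.

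BMP4 is a secreted ligand of the bone morphogenetic protein (BMP) family. It binds type I and type II serine/threonine kinase receptors, which phosphorylate SMAD1, SMAD5 and SMAD9, and these enter the nucleus with SMAD4 and switch on targets such as the ID genes. In primate embryos the amnion forms from the epiblast, the source of pluripotent cells, and BMP signalling drives that step and can drive cultured primate stem cells towards amnion-like or trophoblast-like cells. VTCN1 (B7-H4) is a membrane ligand of the B7 family that restrains T cells, GATA3 is a zinc finger transcription factor of trophoblast, amnion and skin, and TP63 is the p53 family transcription factor that maintains basal cells of stratified epithelium.

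RNA of each sample had been hybridised to 1 Affymetrix Rhesus Macaque array, a platform designed on the sequence of the rhesus macaque, a related species. Haploid stem cells from parthenogenetic blastocysts, which have no sperm genome (PG-haESC), gave 5 arrays: line MPH1 with the code M1 at passages 8 and 11 (arrays 1 and 2), line MPH1 with the code M2 at passages 7 and 9 (arrays 3 and 4) and line MPH2, code M12, at passage 4 (array 5). Stem cells labelled diploid, from blastocysts made by intracytoplasmic sperm injection (ICSI ESC), gave 3 arrays: MES1, code M5, at passage 12, and MES2 and MES3, codes M22 and M24, at passage 4 (arrays 1 to 3). Diploid cells labelled female somatic fibroblasts, MF, code 118, gave 2 arrays, at passages 14 and 15. The labels describe growth of PG-haESCs on feeder cells in stem cell medium with the inhibitors Y27635 and Thiazovivin. How many embryos or animals stand behind a line, whether the codes M1 and M2 are separate derivations, the species of the feeder cells and the medium of the fibroblasts are not known from the labels. Arrays of 1 line differ in passage, and nothing in the labels says that they come from separate cultures, so p-values measure the spread between these arrays, which may be technical.

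The deposited values are linear signals from the Affymetrix MAS5 algorithm, without detection calls, so the signal of a gene that is not expressed is unknown and the median signal of an array, 76.6 to 132 over the 10 arrays, served as the mark of a dim probe set. With 5, 3 and 2 arrays the number of arrays limits the precision. Pluripotency genes summed to 66209 to 98394 signal units in PG-haESCs, 73971 to 83110 in ICSI ESCs and 2751 to 2752 in fibroblasts. In each stem cell group 9 of the 10 tested were called higher than in fibroblasts (limma, adjusted p under 0.05), beside 23.0% of all genes in PG-haESCs and 22.5% in ICSI ESCs. POU5F1, SOX2, LIN28B, PRDM14, ZIC2, DPPA4 and ZFP42 were above the array median on stem cell arrays alone, which let them be tested, so they had to differ. The cells labelled fibroblasts carried both fibroblast and skin markers. Of 11 tested fibroblast markers, 2 were called higher there than in PG-haESCs and 3 higher than in ICSI ESCs. All 11 tested genes of the suprabasal epidermis, the layers above the basal cells of skin, were called higher there than in either stem cell group. Over all genes 17.2% were called lower in PG-haESCs than in fibroblasts and 17.0% in ICSI ESCs. DSC1, DSG1, FLG2, IVL, KRT2, KRTDAP, LORICRIN and SPINK5 were above the array median on the fibroblast arrays alone, which let them be tested, so they had to differ. The 11 genes summed to 338564 to 342542 on the fibroblast arrays against 3284 to 5180 on the stem cell arrays. The keratin KRT1 read 53895 and 53774 and the collagen chain COL1A2 read 63944 and 63905 on the fibroblast arrays. COL1A2 was not called against PG-haESCs or ICSI ESCs (limma adjusted p = 0.114 and 0.111). Fibroblast markers also stood out on 1 stem cell array. The 11 tested genes summed to 181281 on MES1 and to 207529 to 207632 on the fibroblast arrays, but to 11107 to 83845 on the other stem cell arrays. MES1 held the highest stem cell signal for 11 of the 11, beside 18.2% of all genes. In bulk RNA, more cells of a type and more RNA per cell cannot be told apart.

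BMP4 was high in PG-haESCs and near the same lower level in ICSI ESCs and fibroblasts. Its probe set, MmuSTS.3239.1.S1_at, lay above the array median on all 10 arrays. PG-haESC arrays 1 to 5 gave 593, 637, 881, 775 and 1116 signal units. ICSI ESC arrays 1 to 3 gave 392, 350 and 290. Fibroblast arrays gave 391 and 416. Every PG-haESC array lay above every other array, and ICSI ESC and fibroblast arrays overlapped. The lowest PG-haESC signal was 1.51 times the highest ICSI ESC signal.

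The geometric mean of BMP4 signal was 779.5 in PG-haESCs (SD 0.37 log2, n = 5), 341 in ICSI ESCs (SD 0.22, n = 3) and 403 in fibroblasts (SD 0.06, n = 2). The fitted difference between PG-haESCs and ICSI ESCs, which weighs arrays by line and so need not equal the ratio of these means, was 1.27 ± 0.26 log2 (SE), or 2.41-fold. Against fibroblasts it was 1.03 ± 0.32 log2, or 2.04-fold. ICSI ESCs and fibroblasts differed by -0.24 ± 0.32 log2, less than the error, and this sign turned with the scaling of the arrays (0.14 after quantile normalization and 0.04 after centring on array medians). The comparisons of both stem cell groups with fibroblasts share the same 2 fibroblast arrays.

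Within PG-haESCs, BMP4 signal differed by line and code. Both arrays of code M2 lay above both arrays of code M1, with a ratio of 1.34 between their geometric means. MPH2 lay above all 4 MPH1 arrays, by 1.57 times their geometric mean. At passage 4, where lines of both stem cell groups were measured, MPH2 read 3.51 times the geometric mean of MES2 and MES3. Without the MPH2 array the difference from ICSI ESCs was 1.06 ± 0.25 log2, and without the MES1 array it was 1.33 ± 0.27 log2.

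VTCN1 was high in PG-haESCs, low in ICSI ESCs and dim in fibroblasts. Its probe set, MmugDNA.11728.1.S1_at, read 1472, 1137, 2208, 1518 and 543 on PG-haESC arrays 1 to 5. ICSI ESC arrays 1 to 3 gave 254, 113 and 102, all above their array medians, though the signal of MES3 was 1.07 times its array median. Fibroblast arrays gave 42.5 and 13.6, both below their array medians. The 3 groups did not overlap, and the lowest PG-haESC array, MPH2, read 2.14 times the highest ICSI ESC array, MES1.

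The geometric mean of VTCN1 signal was 1250 in PG-haESCs (SD 0.75 log2, n = 5), against 143 for the 3 ICSI ESC arrays (SD 0.72 log2). The fitted difference was 2.95 ± 0.57 log2, or 7.72-fold, and it ran from 2.71 to 3.45 log2 when each array was left out in turn. Since both fibroblast arrays were dim, folds against them are lower bounds, taken with each fibroblast signal raised to its array median: at least 10.8-fold in PG-haESCs and at least 1.24-fold in ICSI ESCs. The order of lines within PG-haESCs was the reverse of that of BMP4 for MPH2, which read 0.353 times the geometric mean of MPH1, while code M2 again lay above code M1, by 1.41 times. Within ICSI ESCs, MES1, the array with high fibroblast markers, read 2.36 times the geometric mean of MES2 and MES3. The part of those markers in its VTCN1 signal was not tested. Without MES1 the difference between PG-haESCs and ICSI ESCs was 3.45 ± 0.55 log2.

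The separation of the stem cell groups by BMP4 and VTCN1 is the pattern for which they were picked. All 5 PG-haESC arrays lay above all 3 ICSI ESC arrays for 590 of the 11678 genes tested, or 5.05%, and BMP4 and VTCN1 are 2 of the 4 genes described here that did so. Nothing is read from that count, since these values took part in the selection.

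**Figure D1:**
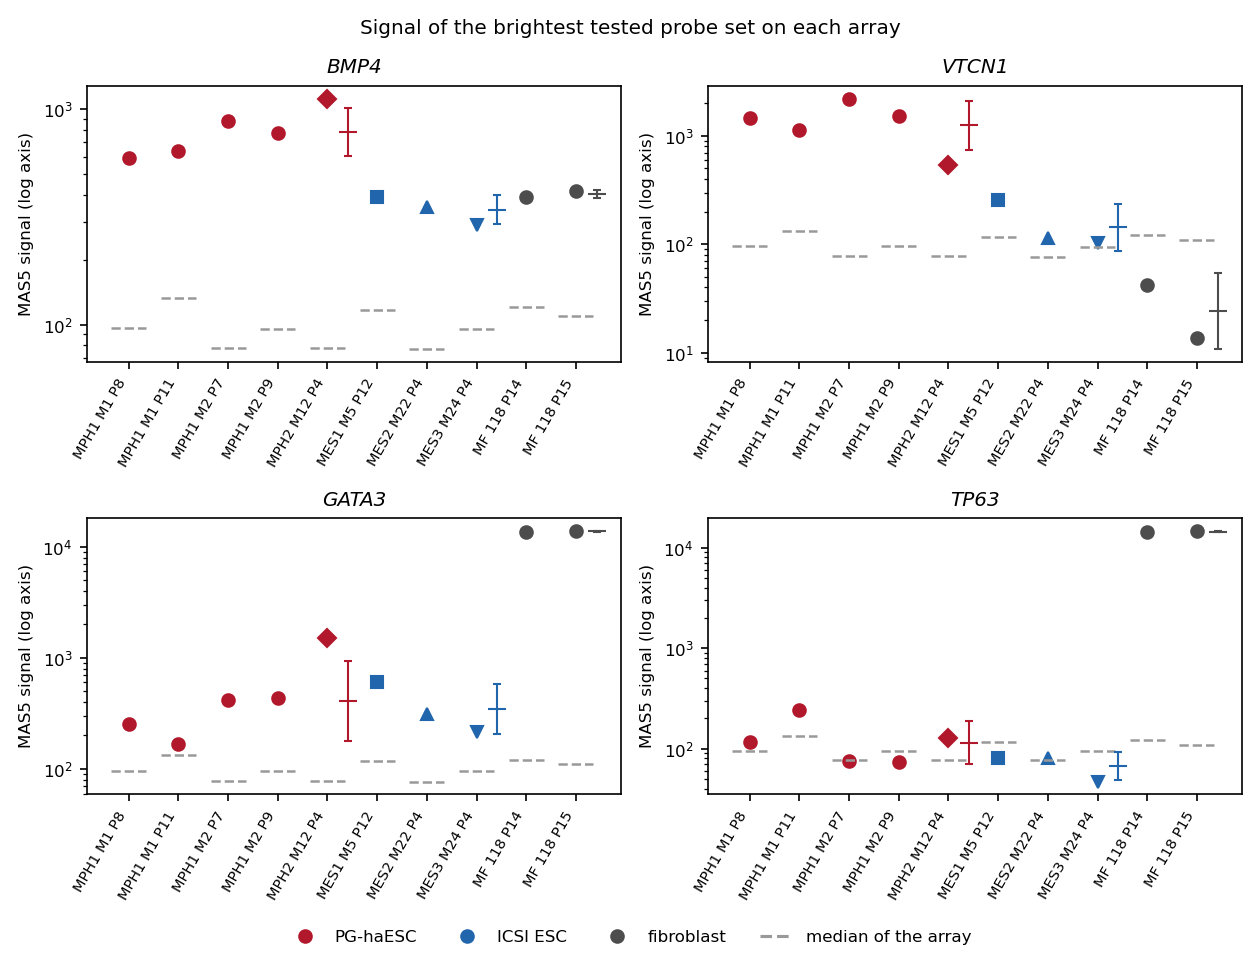
Signal of the brightest tested probe set of BMP4, VTCN1, GATA3 and TP63 on each array, on a log axis, with line, code and passage below; symbols mark lines, dashed lines the median of each array, and bars beside each group its geometric mean ± 1 SD on the log2 scale. BMP4 and VTCN1 are highest in all 5 PG-haESC arrays (593 to 1116 and 543 to 2208), and GATA3 and TP63 are highest in the 2 arrays labelled fibroblast (13640 to 14624).

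GATA3 read above the array median in all 3 groups and was highest in the cells labelled fibroblasts. Its brighter probe set, MmuSTS.4820.1.S1_at, read 13640 and 13859 on the fibroblast arrays, above 99.3% of the probe sets on each. PG-haESC arrays 1 to 5 gave 252, 167, 416, 434 and 1519. ICSI ESC arrays 1 to 3 gave 612, 311 and 217. Every stem cell array was above its array median, none came near the fibroblast arrays, and the stem cell groups overlapped.

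The difference from fibroblasts was -4.79 ± 0.75 log2 in PG-haESCs, or 27.7-fold lower, and -5.31 ± 0.76 log2 in ICSI ESCs, or 39.8-fold lower. Between the stem cell groups the difference was 0.52 ± 0.62 log2, smaller than its error, and its sign rested on 1 array: without MPH2 it was -0.23 ± 0.47 log2. MPH2 read 5.14 times the geometric mean of the 4 MPH1 arrays and 5.84 times that of MES2 and MES3 at the same passage. Within MPH1, code M2 lay above code M1 by 2.07 times. Within ICSI ESCs, MES1 read 2.35 times the geometric mean of the other two lines. Since GATA3 is bright on the arrays labelled fibroblast, and fibroblast markers are high on MES1, the part of those markers in its GATA3 signal was not tested. Without MES1 the difference between PG-haESCs and ICSI ESCs was 0.79 ± 0.64 log2.

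The other GATA3 probe set, MmugDNA.22186.1.S1_at, gave the same order of groups with smaller differences. PG-haESC arrays gave 187, 167, 272, 339 and 602, ICSI ESC arrays 461, 216 and 207, and fibroblast arrays 4191 and 4511. PG-haESCs were below fibroblasts by 13.9-fold and ICSI ESCs by 15.9-fold, and the stem cell groups differed by 0.19 ± 0.45 log2. MPH2 was again the highest stem cell array, at 2.60 times the geometric mean of MPH1. The ratio of the brighter to the dimmer probe set was 3.07 to 3.26 on fibroblast arrays, 2.52 on MPH2 and 1.00 to 1.53 on the other stem cell arrays, so the size of the GATA3 difference depends on the probe set.

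TP63 was bright in the cells labelled fibroblasts and at or near the array median in stem cells. Probe set MmugDNA.33493.1.S1_at read 14270 and 14624 on fibroblast arrays. PG-haESC arrays 1 to 5 gave 116, 242, 75.6, 74.0 and 129, with 3 of 5 above their array medians, and ICSI ESC arrays gave 80.9, 80.2 and 46.9, with 1 of 3 above. The stem cell groups overlapped (difference 0.80 ± 0.47 log2). The difference from fibroblasts was -6.95 ± 0.57 log2 in PG-haESCs and -7.75 ± 0.58 log2 in ICSI ESCs. No fold is given, since some arrays of both stem cell groups were below their medians. Within MPH1 the order of the codes was the reverse of that of the other 3 genes: code M2 read 0.447 times code M1, without overlap. Both code M2 arrays were below their array medians. MPH2 lay within the range of the MPH1 arrays and read 2.10 times the geometric mean of MES2 and MES3. The order of the codes differed between TP63 probe sets. Code M2 read 0.23 times code M1 for MmugDNA.763.1.S1_at and 0.116 times for MmugDNA.33360.1.S1_at. For MmugDNA.9200.1.S1_at code M2 read 1.925 times code M1, with overlap.

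The TP63 probe sets differed in how far they separated fibroblasts from stem cells. MmugDNA.33360.1.S1_at read 565 and 645 on fibroblast arrays and 1.58 to 64.0 on stem cell arrays, all below their array medians, which gives at least 6.42-fold against PG-haESCs and at least 6.36-fold against ICSI ESCs. MmugDNA.763.1.S1_at read 233 and 209 on fibroblast arrays, at least 2.35-fold above PG-haESCs, while 1 of 3 ICSI ESC arrays, MES1 at 128, was above its array median. MmugDNA.9200.1.S1_at read 71.6 and 148 on fibroblast arrays and 10.1 to 122 in PG-haESCs, which overlapped, and 4.02 to 7.44 in ICSI ESCs.

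The remaining 2 TP63 probe sets were above the array median on a single array each and were not tested. MmugDNA.8307.1.S1_at reached 169 on 1 fibroblast array. MmugDNA.14568.1.S1_at was dim on both fibroblast arrays, at 6.30 and 16.3, and above the array median on MPH2 alone, at 79.1. TP63 makes several transcripts from separate promoters and with separate 3′ ends; which of them each probe set reads was not analysed here.

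**Figure D2:**
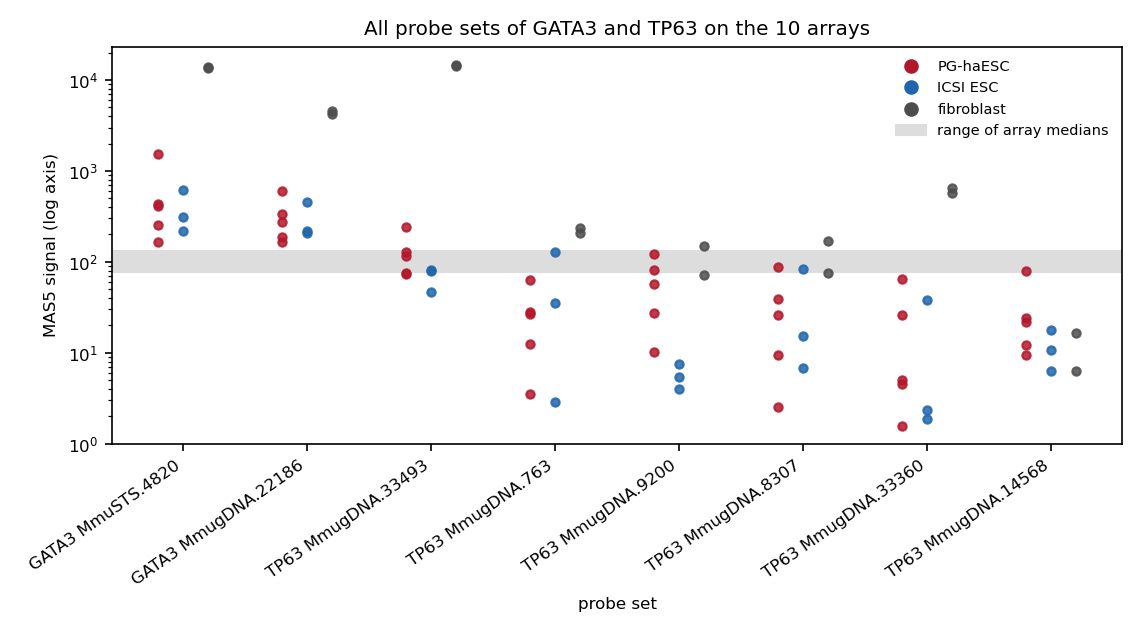
Signal of the 2 GATA3 and 6 TP63 probe sets on the 10 arrays, on a log axis, 1 point per array coloured by group; the grey band spans the array medians, 76.6 to 132. Both GATA3 probe sets and TP63 probe sets MmugDNA.33493, MmugDNA.33360 and MmugDNA.763 are highest on the 2 fibroblast arrays, while TP63 MmugDNA.14568 is dim there (6.30 and 16.3).

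Other genes around the 4 were read from 11 lists of 168 genes besides them, of which 111 had a tested probe set. None of the 111 was called between PG-haESCs and ICSI ESCs by limma at an adjusted p under 0.05. Over all 11678 genes 59 were called higher and 8 lower, or 0.505% and 0.0685%. At an unadjusted p under 0.05 there were 9 of the 111 (8.11%), beside 1026 of all genes (8.79%): IGFBP3, ID1, SMURF2, SMAD5, MSX2, BAMBI, SOSTDC1, TFAP2A and CER1. The smallest adjusted p among the 111, by limma, was 0.27, that of IGFBP3.

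Against fibroblasts, 46 of the 111 were called in PG-haESCs by limma, 16 higher (14.4%) and 30 lower (27.0%). Over all genes the shares were 23.0% higher and 17.2% lower. In ICSI ESCs 16 were called higher and 31 lower (27.9%), beside 22.5% and 17.0% of all genes. The median log2 difference from fibroblasts of the 111 was -0.49 in PG-haESCs and -0.48 in ICSI ESCs, and of all genes 0.06 and 0.07. Of the calls, 34 of 46 and 36 of 47 held without each array in turn.

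Among other ligands of the BMP family, none of 6 tested was called between the stem cell groups, and their median PG-haESC minus ICSI ESC difference was -0.29 log2. BMP2, a close relative of BMP4, read 894, 1690, 396, 346 and 252 on PG-haESC arrays, against 794, 2120 and 743 on those of ICSI ESCs (difference -1.13 ± 0.66 log2). Its order over the PG-haESC arrays was not that of BMP4, since MPH2 was the lowest. GDF3, a ligand of pluripotent cells, read 109 to 767 in PG-haESCs and 340 to 878 in ICSI ESCs and was dim in fibroblasts (6.02 and 16.0), at least 2.44-fold and at least 5.05-fold below the stem cell groups (limma adjusted p = 0.00149 and 0.000305). GDF3 was above the array median on stem cell arrays alone, which let it be tested, so it had to differ.

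Receptors and SMAD proteins of the BMP pathway had 8 tested genes, none called between the stem cell groups (median 0.13 log2). SMAD5, a transducer of BMP receptors, read 2264 to 3047 on PG-haESC arrays (geometric mean 2648, against 2020 in ICSI ESCs). All 5 lay above all 3 ICSI ESC arrays, as they did for 5.05% of all genes, and the difference of 0.42 ± 0.16 log2 did not pass (limma adjusted p = 0.53). SMAD5 was lower in PG-haESCs than in fibroblasts by 2.49-fold (limma adjusted p = 0.00029), a call that centring on array medians ended (adjusted p = 0.077). The type II receptor ACVR2B was 3.98-fold higher in PG-haESCs than in fibroblasts and 4.16-fold higher in ICSI ESCs (limma adjusted p = 0.0039 and 0.0034).

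Antagonists and inhibitors of the pathway had 14 tested genes, none called between the stem cell groups (median -0.25 log2, and 0.12 without MES1). Both stem cell groups were higher than fibroblasts in FST, which traps activins and BMPs (5.62-fold and 5.59-fold, limma adjusted p = 4.08e-05 and 4.72e-05), and in BAMBI, a decoy receptor that BMP signalling induces (4.36-fold and 2.67-fold, adjusted p = 0.00056 and 0.00836). SOSTDC1, a secreted antagonist, read 2758 and 3090 in fibroblasts and 40.6 to 142 in PG-haESCs, 38.6-fold lower (limma adjusted p = 2.77e-05). CER1, a secreted antagonist of BMP and NODAL made in early endoderm, ranged from 48.0 on MPH2 to 6310 on array 2 within PG-haESCs and from 1867 to 7475 in ICSI ESCs, a difference of -3.36 ± 1.54 log2 that did not pass (limma adjusted p = 0.67). Endoderm markers had a median PG-haESC minus ICSI ESC difference of -1.66 log2 with none of 8 called, and their part in the CER1 values was not tested.

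Genes that respond to BMP signals had higher values on the MPH2 array than on most other stem cell arrays. The 12 tested genes had a median PG-haESC minus ICSI ESC difference of 0.77 log2, with none called, beside -0.02 log2 over all genes. Without MPH2 the median was 0.44 log2, and without MES1 it was 1.00 log2. The ID genes encode inhibitors of differentiation that SMAD proteins switch on directly. ID1 read 4308, 2800, 8250, 9612 and 14854 on PG-haESC arrays 1 to 5, against 3889, 2531 and 2617 in ICSI ESCs. ID3 read 1800, 2227, 3771, 7177 and 12789 against 4784, 4134 and 3507. Both were lowest in code M1, higher in code M2 and highest in MPH2 among PG-haESCs, the order that BMP4 also had. Neither passed the test between groups (limma adjusted p = 0.47 and 0.985). ID4 read 2796, 1836, 7996, 12243 and 8499 on PG-haESC arrays 1 to 5, so MPH2 was not its highest array. In ICSI ESCs it read 2912, 4319 and 3482. Of the other response genes, HAND1 and HEY1 had the order of BMP4, and MSX1, MSX2, DLX3, DLX5, ATOH8, GATA2 and TBX3 did not.

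MPH2 held the highest stem cell signal for 7 of the 12 response genes (58.3%), beside 13.8% of all genes. MSX2, a homeobox factor downstream of BMP, read 852 there against 404 to 683 on the other PG-haESC arrays. HAND1, a factor of amnion, trophoblast and extraembryonic mesoderm, read 393 on MPH2, 101 to 251 on the other PG-haESC arrays and 54.3 to 122 in ICSI ESCs. It was at least 1.61-fold higher in PG-haESCs than in fibroblasts (limma adjusted p = 0.0075). HAND1 was above the array median on stem cell arrays alone, which let it be tested, so it had to differ. TBX3, a T-box factor, had its highest signal elsewhere: it read 2351 on MES1 and 117 to 479 on the other stem cell arrays.

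Amnion genes showed the same array at the top. Of 18 tested genes none was called between the stem cell groups, and the median difference was 0.92 log2, 0.53 without MPH2 and 1.21 without MES1. MPH2 held the highest stem cell signal for 9 of the 18 (50%), and HAND1, HEY1, GATA2 and DLX5 stand in both this list and that of response genes. TFAP2A, an early marker of amnion and surface ectoderm, read 183, 394, 919, 1279 and 3367 on PG-haESC arrays 1 to 5 and 754, 133 and 130 in ICSI ESCs. Its order within PG-haESCs was code M1, then code M2, then MPH2, and its signals spread too widely to pass between the groups (2.04 ± 0.92 log2, limma adjusted p = 0.66).

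IGFBP3, a secreted binding protein of insulin-like growth factors, read 576 to 1303 on MPH1 arrays, 4524 on MPH2 and 364 to 715 in ICSI ESCs. GABRP, a receptor subunit found in amnion, read 17.5 to 593 on MPH1 arrays, 1457 on MPH2 and 46.2 to 87.4 in ICSI ESCs. HEY1, a Notch and BMP target, read 2619 on MPH2 and 131 to 271 on every other stem cell array. ISL1, a factor of amnion and of cardiac progenitors, did not share the pattern: it read 99.9 to 192 in PG-haESCs and 91.1 to 239 in ICSI ESCs, a difference of -0.10 ± 0.59 log2. MPH2 is 1 array of 1 line at the lowest passage among PG-haESCs, so line, passage and array cannot be told apart. Its summed fibroblast markers, 58984, lay within the range of the MPH1 arrays (11107 to 83845), and its summed pluripotency markers, 66209, were the lowest of the 8 stem cell arrays. The sum of the neuroectoderm markers was highest there: the 3 tested genes summed to 2859 on MPH2, against 985 to 2250 on MPH1 arrays and 571 to 1137 in ICSI ESCs. PAX6 read 464 on MPH2 and at most 110 on other stem cell arrays, and DCX, a microtubule protein of young neurons, read 1055 against at most 378. The third gene, SOX3, went the other way: it read 1340 on MPH2, below the 1722 and 1826 of the MPH1 arrays of code M2. The part of these markers in the MPH2 values was not tested.

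**Figure D3:**
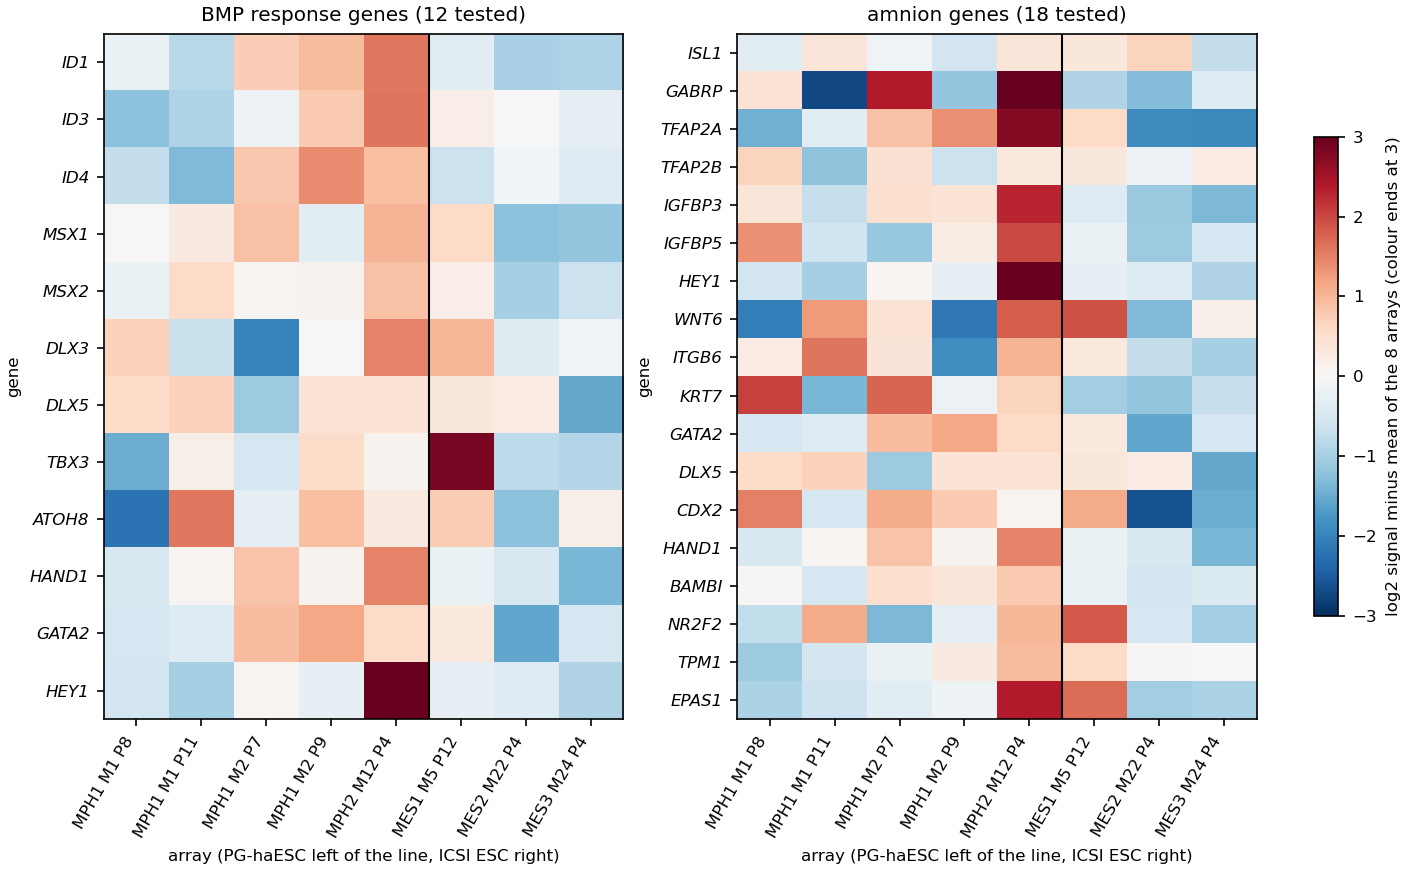
Each tested BMP response gene (left, 12) and amnion gene (right, 18) on the 8 stem cell arrays, as log2 signal minus the gene's mean over the 8 arrays; colours end at 3, and the vertical line parts PG-haESC from ICSI ESC arrays. MPH2 at passage 4 is the highest array for 7 of 12 and 9 of 18 genes, and TBX3 is highest on MES1 (2351).

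Trophoblast genes gave no call between the stem cell groups. Over the 15 tested the median difference was 0.19 log2 (-0.03 without MPH2). Against fibroblasts the trophoblast list gave calls in both directions. SDC1, a cell surface proteoglycan also found in skin, was 9.79-fold lower in PG-haESCs (limma adjusted p = 2.11e-07). ELF5, a factor of trophoblast and also of glandular and skin epithelium, read 972 and 918 on fibroblast arrays and at most 57.5 on stem cell arrays, all below their array medians, at least 10.05-fold lower in PG-haESCs (limma adjusted p = 0.0074). ELF5 passed the filter on dim probe sets through the fibroblast arrays alone, and so had to differ. The same holds, among other genes, for TRIM29, DSG3, JAG2, LORICRIN and KRTDAP. Of the trophoblast genes on the array, 3 of 18 did not pass that filter. GATA2, the GATA factor that acts with GATA3 in trophoblast, read 134 to 420 in PG-haESCs and 63.9 to 230 in ICSI ESCs and overlapped between all groups except ICSI ESCs and fibroblasts.

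Relatives and partners of GATA3, VTCN1 and TP63 were read beside them, and with 6 or 7 tested genes a list their shares of calls are not set apart from the 17.2% of all genes called lower in PG-haESCs. GATA and FOG factors had 6 tested genes, none called between the stem cell groups, and against fibroblasts the single call in each stem cell group was TRPS1, a GATA-type repressor, 3.36-fold and 3.53-fold lower. The endoderm factor GATA6 read 244 to 4012 in PG-haESCs and 1283 to 3564 in ICSI ESCs. Of 6 tested B7 family genes none was called between the stem cell groups, and CD86 was the single call against fibroblasts, at least 4.33-fold lower in PG-haESCs (limma adjusted p = 0.016, 0.087 without fibroblast array 1 and 0.056 with arrays averaged by line). CD86 passed the filter on dim probe sets through the fibroblast arrays alone, so it had to differ, and 4 of 10 B7 genes on the array did not pass that filter. CD276 (B7-H3) read 866 to 1643 on all 8 stem cell arrays. Of the p53 family and its regulators, 2 of 7 were called, both lower than in fibroblasts: PPP1R13L, an inhibitor of p53 proteins known from skin and heart, by 5.55-fold and PPP1R13B by 5.70-fold in PG-haESCs.

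Most tested targets of TP63 and other genes of basal epidermis were lower in stem cells than in the cells labelled fibroblasts. In PG-haESCs 9 of 13 tested genes were called lower than in fibroblasts and 2 higher, with a median of -3.43 log2, beside 17.2% and 23.0% of all genes. Of those called lower, TRIM29, DSG3 and JAG2 passed the filter on dim probe sets through the fibroblast arrays alone, so they had to differ. Without fibroblast array 1 there were 7 calls in place of 11: BNC1 (limma adjusted p = 0.097), DSG3 (0.111), JAG2 (0.053) and CDH3 lost theirs. DSG3 also lost its call without any 1 of 7 other arrays, and BNC1 without any 1 of 4 others. In ICSI ESCs 8 were called lower and 2 higher, with a median of -3.60 log2. TRIM29, a gene of basal keratinocytes, read 6919 and 6467 on fibroblast arrays and 7.92 to 65.8 on stem cell arrays, at least 71.2-fold lower in PG-haESCs (limma adjusted p = 9.66e-06). PERP, a desmosome-associated target of TP63, read 45511 and 46559 on fibroblast arrays and 2280 to 5992 on stem cell arrays, 14.8-fold lower in PG-haESCs (limma adjusted p = 9.45e-06). The genes called higher in stem cells were FRAS1, a basement membrane protein (12.9-fold in PG-haESCs), and CDH3, P-cadherin (2.61-fold, limma adjusted p = 0.016, 0.057 without fibroblast array 1 and 0.118 with arrays averaged by line). None of the 13 was called between the stem cell groups. The suprabasal genes LORICRIN and KRTDAP, which were fixed as markers of another skin layer, were at least 452-fold and at least 589-fold lower in PG-haESCs than in the cells labelled fibroblasts, and their part in the TP63 and GATA3 differences was not tested.

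Genes of simple and surface epithelium were divided. Of 17 tested, 5 were called higher and 8 lower in PG-haESCs than in fibroblasts (median -0.56 log2), beside 23.0% and 17.2% of all genes. In ICSI ESCs 5 were called higher and 6 lower, beside 22.5% and 17.0% of all genes. CLDN6, a tight junction protein of pluripotent and embryonic epithelial cells, was at least 25.1-fold higher in PG-haESCs (limma adjusted p = 6.92e-07), and KRT8, a keratin of simple epithelium, at least 7.86-fold (adjusted p = 1.15e-05). CLDN6 and KRT8 passed the filter on dim probe sets through the stem cell arrays alone, so they had to differ. GRHL1, a factor of stratified epithelium, was 38.9-fold lower in PG-haESCs and 55.0-fold lower in ICSI ESCs. TFAP2A read 11787 and 11329 on fibroblast arrays, 11.98-fold above PG-haESCs (limma adjusted p = 0.027), and that call was lost without fibroblast array 1 (adjusted p = 0.076), fibroblast array 2 (0.072) or PG-haESC array 2 (0.078), with arrays averaged by line (0.127) and without the intensity trend (0.068). KRT8 read 1402 on MPH2 and 740 to 841 on MPH1 arrays.

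**Figure D4:**
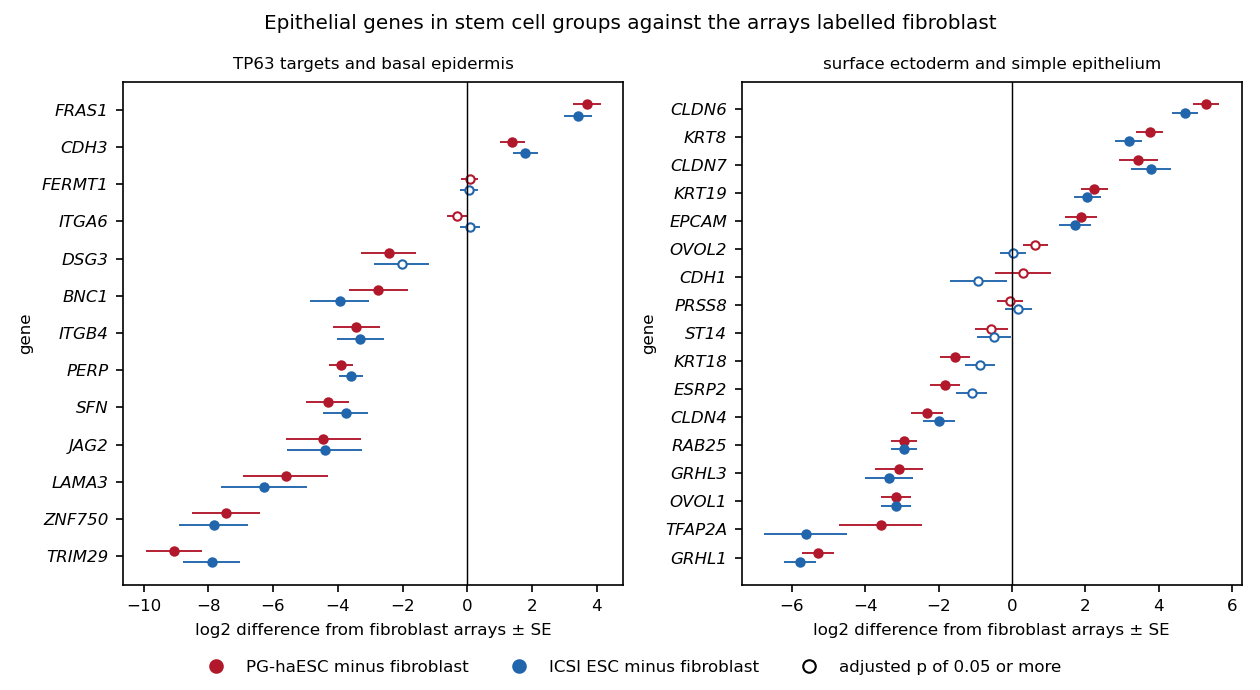
Log2 difference from the fibroblast arrays with its SE for 13 tested TP63 target and basal epidermis genes (left) and 17 surface ectoderm and simple epithelium genes (right), in PG-haESCs and ICSI ESCs, which share the 2 fibroblast arrays; filled points have a limma adjusted p under 0.05. On the left 9 genes are called lower in PG-haESCs and 2, FRAS1 and CDH3, higher, and on the right 5 are called higher and 8 lower. Over all genes 23.0% are called higher and 17.2% lower.

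Over the 8 stem cell arrays the 5 genes with signal most like each of the 4 were ranked by Pearson's r of log2 signal among 11678 genes, as a description. The arrays fall into the 5 PG-haESC and 3 ICSI ESC arrays, so a gene that differs between these groups ranks high for BMP4 and VTCN1. For BMP4 the 5 were ARMCX2 (r = 0.991), PIR, MAGEH1, NAP1L2 and HDAC8 (r = 0.984). ARMCX2 read 4204 to 6178 in PG-haESCs and 2160 to 2635 in ICSI ESCs. For VTCN1 they were PLS3 (r = 0.981), HPRT1, PCDH8, INTS6L and THAP8 (r = 0.973). PCDH8, a protocadherin, read 2270 on MPH2, up to 16529 on the other PG-haESC arrays and 145 to 248 in ICSI ESCs, so that MPH2 was the lowest PG-haESC array, as for VTCN1.

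For GATA3 the most alike were CRTC3 (r = 0.974), PIGB, ACTRT1, FBRS and SULF2 (r = 0.958), all highest on MPH2 among PG-haESCs. ACTRT1 read 5965 and 5885 on fibroblast arrays. For TP63 they were CENPT (r = 0.969), TCP11L2, TMEM192, ZFP36 and DSC3 (r = 0.941). TP63 signal on these arrays lay near the array medians, and TCP11L2 was below the array median on all 8. DSC3, a desmosomal cadherin of basal epidermis, read 57.6 to 134 on stem cell arrays and 23041 and 24744 on fibroblast arrays, which the ranking did not use. Among the 4 genes themselves, r was 0.80 between BMP4 and VTCN1, 0.52 between BMP4 and GATA3 and 0.02 between VTCN1 and GATA3.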

How the data were processed

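Signals of 10 arrays were analysed. The deposited values are linear signal intensity made by the authors with MAS5, per the submitters' processing notes (no release is named there). Trimmed of 2% at each end, every array averaged 500. After 99 control probe sets were left out, 34178 of 52865 probe sets, those above their array median on at least 2 arrays, were tested. Symbols came from the supplied annotation (24969 probe sets with 1 symbol, 361 with several, 27535 with none), and the tested probe set brightest on average (log2) stood for a gene. The test was limma (3.58.1, R 4.3.3) fitted to log2 signal: 3 group means over all 10 arrays, line as random block (correlation 0.29), intensity trend, two-sided, Benjamini-Hochberg adjusted over all probe sets tested; the fit had 7 residual and 5.38 prior degrees of freedom. Folds over a group with no signal above an array median are bounds, taken against those medians. The method was tested on simulated data.

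The 4 genes and all lists were chosen with earlier results of these data known. Named genes are, per pathway list, up to 3 of smallest p in each PG-haESC comparison, up to 3 marker genes per list, and the 5 most alike per gene. CER1, GABRP, HEY1, EPAS1, ID3, ID4, TBX3, CDH3, HAND1, GATA2 and LORICRIN were, where the rule did not name them, singled out after their values were seen. Genes named within counts follow the counts. Alternatives were other line handling, normalization, offset, filters, probe set averaging, samples in the fit, variance model and leaving out each array; list medians, call shares and gene-by-gene calls under them were added after seeing the data. Figures were drawn with matplotlib 3.10.9.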

Additional observations from a re-analysis of the deposited data

Results flagged for a closer look

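Within the 5 PG-haESC arrays, the signal of 12 of 100 genes or probe sets checked had 1 array far from the other 4 (its gap to the nearest array over the whole range was above Dixon's critical value of 0.71). Chance alone flags about 1 in 20 groups, and several of the genes were named because of such an array, so the number is not a measure of how often it happens. For 8 of them the array was MPH2: GATA3 at 1519 (brighter probe set), CRTC3 at 1762, PIGB at 714, EPAS1, a hypoxia-inducible factor, at 2343, HEY1 at 2619, IGFBP3 at 4524, KRT8 at 1402 and PERP at 5022. For 3 it was MPH1 code M1 at passage 11: CER1 at 6310, GATA6 at 4012 and KRT1 at 278. For ELF5 it was MPH1 code M2 at passage 9, at 57.5, which is below the median of that array.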

How the results depend on the processing

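Of 216 recomputed differences of the 4 genes, 208 moved by less than the spread between arrays and 213 kept their sign. The BMP4 difference between ICSI ESCs and fibroblasts turned from -0.24 to 0.139 after quantile normalization and 0.04 after centring on array medians. Averaging all probe sets of a gene moved GATA3 in ICSI ESCs against fibroblasts from -5.31 to -4.65 and TP63 to -4.06 in ICSI ESCs and -3.24 in PG-haESCs, because dim TP63 probe sets enter. An offset of 32 moved TP63 in ICSI ESCs to -7.18 and VTCN1 to 1.61 in ICSI ESCs and 4.30 in PG-haESCs. GATA3 between the stem cell groups turned to -0.23 without MPH2. The cause of the shifts with scaling and offset was not tested. The number of listed genes called was 0 between the stem cell groups under all 21 alternatives, and 33 to 57 and 38 to 57 against fibroblasts in PG-haESCs and ICSI ESCs. Over all probe sets 154 were called between the stem cell groups, with 8 (without MES3) to 475 (arrays as independent samples) under the alternatives, and 11276 between PG-haESCs and fibroblasts, with 6295 when the arrays of each line were averaged. Centring on array medians moved the median of all genes against fibroblasts from 0.06 to 0.39 in PG-haESCs. In ICSI ESCs it moved from 0.07 to 0.36. Quantile normalization gave medians of 0.24 and 0.24. Centring also moved the share of higher among the genes called in PG-haESCs against fibroblasts from 57.1% to 68.1%. Between the stem cell groups centring left 1 gene higher and 1 lower in place of 59 and 8. Averaging the arrays of each line left 0 higher and 1 lower between these groups. No paired analysis was possible because replicate numbers only name arrays and pair none, so a replicate block could not be fitted. Low signal without detection calls limits TP63 in stem cells and VTCN1 in fibroblasts.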

Other observations

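Markers of the early germ layers were read in the same fit, with none called between the stem cell groups (limma). The 8 tested endoderm genes summed to 2493 to 16079 signal units in PG-haESCs, 7701 to 20807 in ICSI ESCs and 1928 to 2042 in fibroblasts. ICSI ESCs had 6 of the 8 called higher than fibroblasts, beside 22.5% of all genes, among them the forkhead factors FOXA1 and FOXA2 and the yolk sac protein AFP. PG-haESCs had 3 (APOA1, FOXA2 and EOMES), beside 23.0% of all genes. Of 8 tested primitive streak and mesoderm genes, EOMES alone was called higher in PG-haESCs (12.5%), and EOMES, TBXT and GSC in ICSI ESCs. Of 3 tested neuroectoderm genes, SOX3 and DCX were called higher in PG-haESCs and SOX3 in ICSI ESCs. APOA1, FOXA1, FOXA2, EOMES, TBXT, SOX3 and DCX were above the array median on stem cell arrays alone, which let them be tested, so they had to differ. The median PG-haESC minus ICSI ESC difference was -1.66 log2 for endoderm genes, -0.61 log2 for primitive streak genes and 2.57 log2 for the 3 neuroectoderm genes. Among PG-haESC arrays the highest sum of the endoderm and streak lists was on MPH1 code M1 at passage 11, the PG-haESC array on which CER1 and GATA6 were highest, and BMP4 there was the next to lowest of the 5. The difference in the number of calls between the stem cell groups was not tested.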
